A study of Homo sapiens with 32 samples.

Results

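H3K9me3 regions near centromeres are those regions of the LOVO and RKO peak lists on chromosomes 1 to 22 whose midpoint lies within 4 Mb of a fixed hg38 position where the short arm meets the long arm, here called the arm border. The rule uses position only and takes 2369 of 36735 regions, 1511 of 14804 from LOVO and 858 of 21931 from RKO. LOVO and RKO are established colon adenocarcinoma cell lines. The series holds 32 ChIP-seq libraries in 16 groups of 2, and 8 of them, 4 for each line, are H3K9me3 ChIP made with a rabbit polyclonal antibody. In each line these 4 comprise 2 replicates labelled shControl (control short hairpin RNA) and 2 labelled shMETTL3 (short hairpin RNA against METTL3, which encodes the enzyme that writes m6A on RNA), with inputs beside them. The remaining groups, METTL3 ChIP and cells labelled OLA with their inputs, were not used here. Each line has 1 deposited H3K9me3 list, which names no library or condition, so control and knockdown cannot be told apart, every value below is a description of 2 lists without replicates, and no test between the lines was possible. The sequencing depth behind a region is unknown, and the sources used here do not say how reads matching several copies of a repeat were placed.

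H3K9me3 is the trimethylated form of lysine 9 of histone H3. It is bound by HP1 proteins and written at pericentromeric satellite repeats mainly by the SUV39H methyltransferases, where it forms constitutive heterochromatin on either side of the chromatin with CENP-A, the histone that marks the centromere. SETDB1, recruited by KRAB zinc finger proteins and TRIM28, places the same mark at transposable elements and over clusters of zinc finger genes, several of which lie beside centromeres.

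Few start sites near the arm borders lay under a region, and the sequences of those that did are shown first because they are the points where these regions meet gene starts. A promoter was taken from RefSeq (GRCh38.p14, the build of the lists) as the 250 bases before and 50 bases after a start site, and a gene can have several. Of 940 promoters near the arm borders, 3 lay under a LOVO region (0.319%, against 0.522% of all 33725 promoters) and 5 under an RKO region (0.532%, against 0.981% of all). None lay under regions of both lines, and over all 33725 promoters only 26 did. The 3 sequences below were chosen after these values were seen, as the promoters of named genes that lie under a region over their whole length. Capitals mark each CpG, the dinucleotide where DNA methylation is placed, and each sequence is read 5′ to 3′ along its gene. ZNF239, a zinc finger gene (chr10:43574567-43574866, minus strand), was under a LOVO region, while LINC01667 (chr21:9821012-9821311, minus strand) and FAM230F (chr22:18896715-18897014, minus strand), both long noncoding RNA genes, were under RKO regions.
ZNF239: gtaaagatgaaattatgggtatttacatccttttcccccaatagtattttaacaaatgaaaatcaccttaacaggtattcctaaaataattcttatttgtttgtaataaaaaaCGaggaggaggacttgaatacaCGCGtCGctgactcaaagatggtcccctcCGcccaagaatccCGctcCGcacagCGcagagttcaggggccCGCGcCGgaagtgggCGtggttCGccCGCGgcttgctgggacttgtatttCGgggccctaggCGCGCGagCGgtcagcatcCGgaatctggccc
LINC01667: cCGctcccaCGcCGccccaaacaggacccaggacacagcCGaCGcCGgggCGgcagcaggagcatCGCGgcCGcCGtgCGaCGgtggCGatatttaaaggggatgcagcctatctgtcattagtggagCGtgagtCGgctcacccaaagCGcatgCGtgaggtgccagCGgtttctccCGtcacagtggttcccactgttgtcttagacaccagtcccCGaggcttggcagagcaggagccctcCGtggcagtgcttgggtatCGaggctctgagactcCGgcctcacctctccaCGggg
FAM230F: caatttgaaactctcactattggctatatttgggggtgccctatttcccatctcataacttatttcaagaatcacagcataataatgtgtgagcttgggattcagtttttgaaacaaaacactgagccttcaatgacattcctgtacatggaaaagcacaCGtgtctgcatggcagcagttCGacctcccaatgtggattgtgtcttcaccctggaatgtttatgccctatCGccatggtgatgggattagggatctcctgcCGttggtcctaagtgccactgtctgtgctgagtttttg
ZNF239 held 21 CpG at a GC content of 50.7%, LINC01667 held 25 CpG at 64.7%, and FAM230F held 4 CpG at 44.3%. The median was 14 CpG over all promoters and 11 over the 940 near the arm borders. The GC box GGGCGG, searched on both strands, was present in ZNF239 and LINC01667 and had no match in FAM230F. It occurs in 45.0% of all promoters and in 38.2% of those near the arm borders. FAM230F also had a LOVO region elsewhere in its body (2.62 kb). Beside these promoters, 1 microRNA gene lay under a region of both lines, MIR1299 on chromosome 9, inside the widest RKO region near that border. Its mature product (chr9:40929010-40929031, minus strand, from RefSeq) is printed with the seed, bases 2 to 8, in capitals.
hsa-miR-1299: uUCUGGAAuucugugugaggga
Of 51 microRNA genes near the arm borders, 1 (1.96%), MIR1299, lay under a LOVO region, against 0.837% of all 1793. Under an RKO region lay 2 (3.92%), MIR1299 and MIR4477A, also on chromosome 9, against 1.78% of all. Regions of both lines lay over 11 of the 1793.

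LOVO had more H3K9me3 regions near centromeres than RKO, the reverse of their order in the rest of the same chromosomes. The 1511 LOVO regions made up 10.2% of that list (Wilson 95% interval 9.73 to 10.7%) and the 858 RKO regions 3.91% (3.66 to 4.18%), a ratio of 1.76 LOVO regions for each RKO region. Elsewhere LOVO had 13293 and RKO 21073, a ratio of 0.631. The intervals cover counting error only, and neighbouring regions are not independent. Over the 159.7 Mb near arm borders that lie in 1-Mb windows with a gene or a region, LOVO had 9.46 regions per Mb against 5.06 in the rest, a ratio of 1.87. RKO had 5.37 regions per Mb near the borders against 8.02 in the rest, a ratio of 0.670. By bases, LOVO regions covered 2.74% of the sequence near borders and 1.34% of the rest, and RKO regions covered 1.95% and 2.54%. Neither input signal nor the copy number of these stretches was examined.

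**Figure D1:**
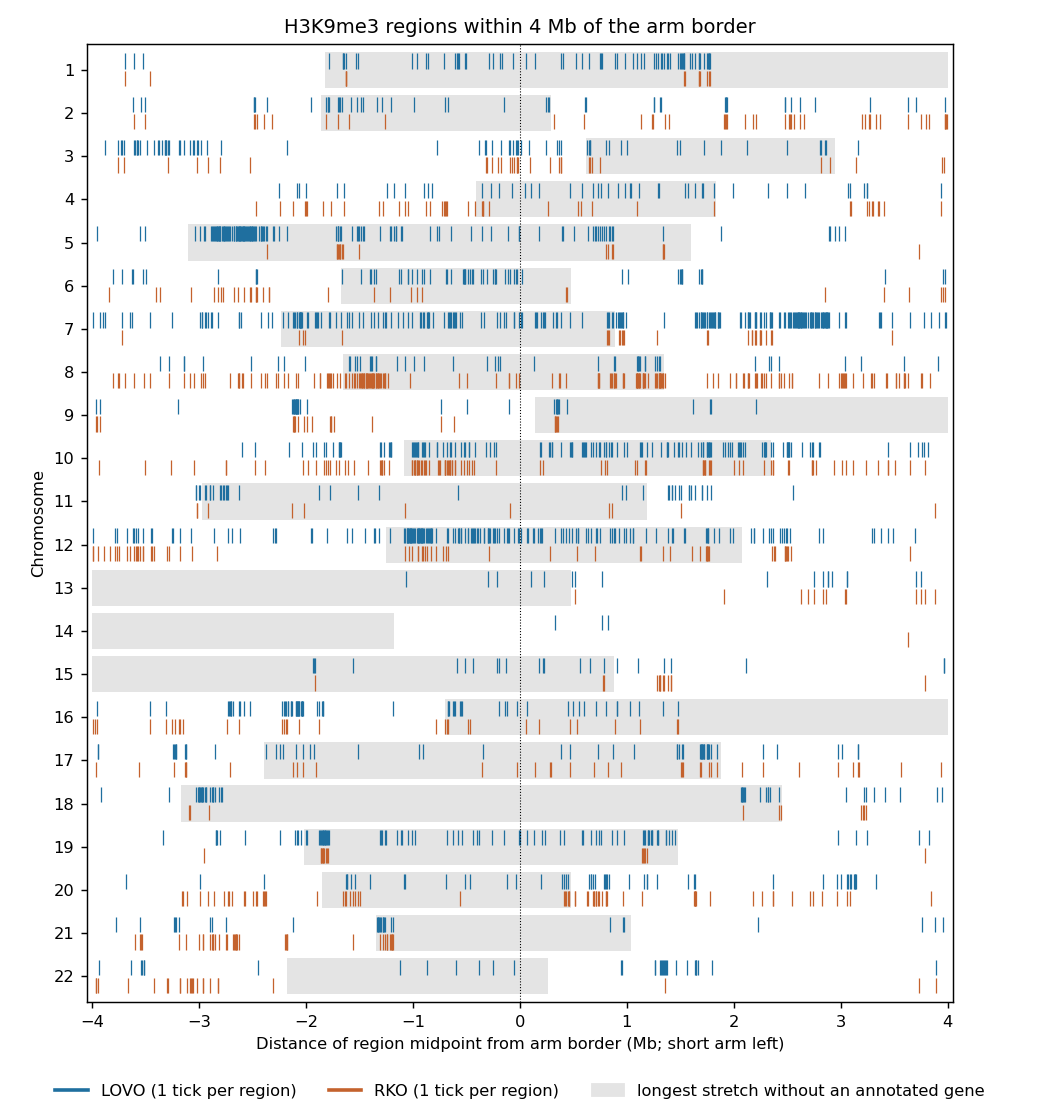
Position of each H3K9me3 region within 4 Mb of the arm border of chromosomes 1 to 22; the x axis is the distance of the midpoint from the border in Mb, the y axis the chromosome, each tick 1 region (LOVO above, RKO below), and grey marks the longest stretch without an annotated gene. LOVO ticks outnumber RKO ticks on 19 chromosomes, and RKO ticks outnumber LOVO ticks on chromosomes 8, 20 and 21.

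The LOVO regions crowded toward the border and the RKO regions did not. Within 1 Mb of a border LOVO had 479 regions (11.7 per Mb), from 1 to 2 Mb 450 (10.9 per Mb), from 2 to 3 Mb 391 (9.95 per Mb) and from 3 to 4 Mb 191 (5.03 per Mb). Past the limit, from 4 to 6 Mb, LOVO had 4.71 per Mb, so its density had already reached the level of the neighbouring arms in the outermost Mb of the window. RKO had 191 regions within 1 Mb (4.66 per Mb), 260 from 1 to 2 Mb (6.28 per Mb), 215 from 2 to 3 Mb (5.47 per Mb) and 192 from 3 to 4 Mb (5.05 per Mb), against 4.47 per Mb from 4 to 6 Mb and 5.51 from 8 to 12 Mb. In the outermost ring the lists held almost the same number, 191 and 192. In bins of 250 kb, LOVO ranged from 10 to 77 regions with its highest bin 0.75 to 1.0 Mb into the long arm. RKO ranged from 6 to 47, and its lowest bin, the first 250 kb of the long arm, held 44 LOVO regions.

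**Figure D2:**
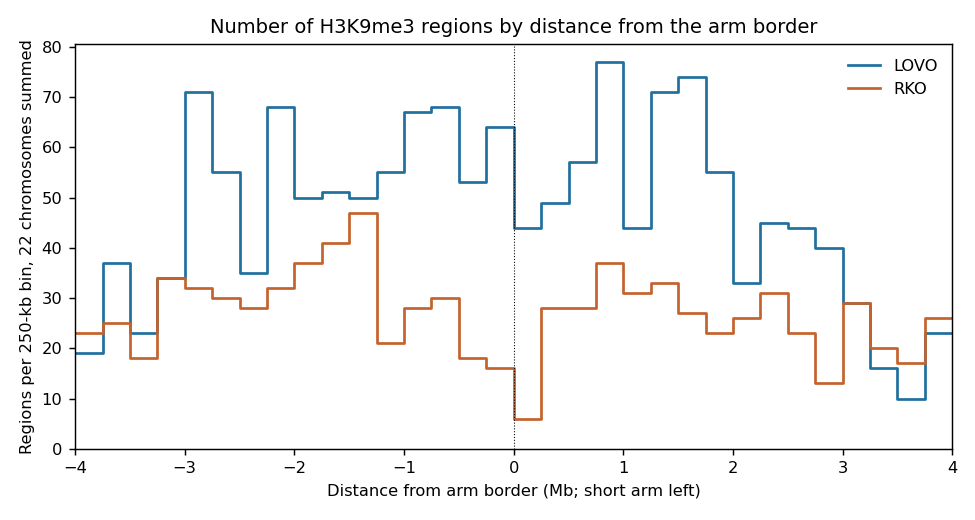
Number of regions in each 250-kb bin (y axis, summed over 22 chromosomes) by distance from the arm border in Mb (x axis, short arm to the left), with a line for each cell line. LOVO lies between 10 and 77 regions per bin and RKO between 6 and 47, and LOVO is above RKO in every bin within 2 Mb of the border, while in the outermost Mb the lines cross.

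Each 8-Mb window was then divided into its longest stretch without an annotated gene, from 2.16 to 5.83 Mb long, and the gene-bearing sequence on either side. This division was chosen after the positions were seen. The gene-free stretches carried most of the difference between the lines. They held 901 LOVO and 336 RKO regions, a ratio of 2.68, or 14.7 and 5.47 regions per Mb over the 61.5 Mb that lie in 1-Mb windows with a gene or region. Counted over all 77.8 Mb of these stretches the densities were 11.6 and 4.32 per Mb. The flanks held 610 LOVO and 522 RKO regions, a ratio of 1.17, or 6.21 and 5.31 per Mb. LOVO was therefore 2.90 times as dense in the gene-free stretches as in the rest of its chromosomes and 1.23 times as dense in the flanks. RKO was at 0.682 and 0.663 times its density in the rest. These ratios leave out 1-Mb windows without a gene or region. With all bases of the gene-free stretches counted, RKO stood at 4.32 per Mb there, below the 5.31 of the flanks. LOVO stood at 11.6 per Mb, still above the 6.21 of its flanks but below the 14.7 behind its ratio of 2.90. In bases, LOVO regions covered 2560 kb and RKO regions 1301 kb of the gene-free stretches, while in the flanks the lists covered 1812 and 1815 kb.

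Regions near borders also lay closer together. The median gap to the preceding region of the same list was 20.4 kb in LOVO, against 76.2 kb in the rest, and 26.6 kb in RKO, against 33.0 kb. In LOVO 37.3% of the gaps were under 10 kb, against 15.1% in the rest, and in RKO 35.0%, against 26.7%. Within the gene-free stretches RKO had the shorter gap, with a pooled median of 12.9 kb against 18.1 kb in LOVO. Of the 336 RKO regions there, 93 lay on chromosome 8 and 59 on chromosome 10. The gap was not computed for each chromosome.

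LOVO had more regions than RKO near the border of 19 chromosomes, whereas in the rest of the same chromosomes RKO had more on 19. LOVO was denser near the border than in the rest on 19 of 22 chromosomes and RKO on 6. In the gene-free stretches LOVO led on 20 chromosomes, RKO led on chromosome 8 alone, and chromosome 14 had no region of either list. Of the 2.82 Mb of that stretch on chromosome 14, only 0.025 Mb lay in 1-Mb windows with a gene or region. RKO also had no region in the gene-free stretches of chromosomes 13 and 22. In the flanks LOVO led on 13 chromosomes and RKO on 8, with 1 equal.

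Chromosome 7 had the most LOVO regions and the highest ratio of LOVO to RKO, with 229 in LOVO and 28 in RKO, a ratio of 8.18. LOVO stood at 28.6 regions per Mb near this border and 9.99 in the rest of the chromosome, and RKO at 3.50 and 14.2, so the lines were ordered oppositely on a single chromosome. Its gene-free stretch held 90 LOVO and 7 RKO regions, and the long-arm flank 115 and 20. By ratio, chromosome 5 came next with 128 and 18 regions (7.11), of which 119 and 17 lay in the gene-free stretch. Chromosome 1 had 71 and 13 (5.46), and chromosome 19 had 85 and 16 (5.31).

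Chromosomes 12 and 10 were rich in both lists. Chromosome 12 had 176 LOVO and 64 RKO regions, with 22 and 8 per Mb near the border against 9.79 and 9.86 in the rest. Chromosome 10 had 145 and 105, the highest relative density of LOVO at 4.13 times the rest of that chromosome, and RKO was raised there too, at 1.59 times. Together chromosomes 5, 7, 10, 12 and 19 held 505 of the 901 LOVO regions in gene-free stretches (56.0%) and 126 of the 336 RKO regions (37.5%). Without chromosomes 5, 7, 10 and 12, 833 LOVO and 643 RKO regions were left, a ratio of 1.30. In the gene-free stretches alone the ratio was then 2.08 (465 and 224), and in the flanks RKO had more, with 419 against 368.

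By count, chromosomes 8, 20 and 21 went the other way. Chromosome 8 had 187 RKO and 51 LOVO regions, with 93 and 34 in the gene-free stretch and 94 and 17 in the flanks. RKO was at 23.4 regions per Mb near that border and at 28.2 in the rest of chromosome 8, so the border was not denser than its arms. LOVO was at 6.38 and 3.54. Chromosome 20 had 70 RKO and 52 LOVO regions, and chromosome 21 had 39 and 29. In the rest of chromosome 20 RKO also led, with 372 regions against 125. Relative to the rest of the same chromosome, LOVO was the more raised line on chromosome 8 (1.80 times, RKO 0.828). The same held on chromosome 20 (2.96 times, RKO 1.34). On chromosome 21, RKO was 3.36 times as dense near the border as in the rest (5.57 and 1.66 per Mb), its highest such ratio. LOVO was at 1.77 times there. Without chromosome 8, LOVO had 1460 and RKO 671 regions, a ratio of 2.18, and 867 and 243 in the gene-free stretches, a ratio of 3.57.

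**Figure D3:**
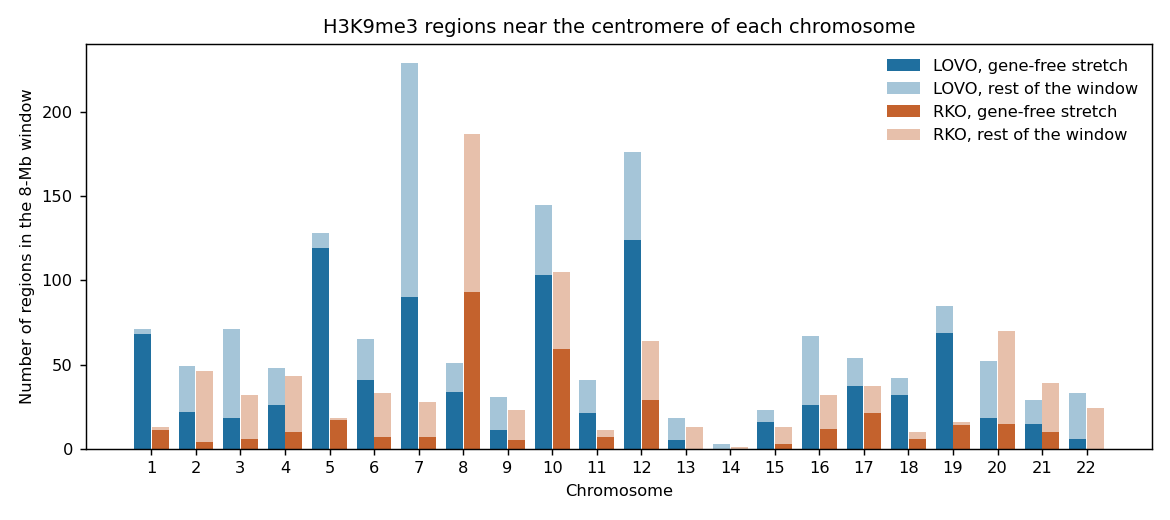
Number of H3K9me3 regions in the 8-Mb window of each chromosome (y axis), LOVO and RKO side by side; the solid lower part of a bar counts regions in the gene-free stretch and the pale upper part the rest of the window. The LOVO bar is highest on chromosome 7 (229 regions, RKO 28) and the RKO bar on chromosome 8 (187 regions, LOVO 51).

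Of the acrocentric chromosomes other than 21, whose short arms are largely repeats, chromosome 14 had 3 LOVO and 1 RKO, chromosome 13 had 18 and 13, chromosome 15 had 23 and 13, and chromosome 22 had 33 and 24. Of their 8-Mb windows, 5.2, 5.7, 6 and 8 Mb lay in 1-Mb windows with a gene or region. How much of the remaining sequence could be mapped was not examined, so low counts there cannot be read as absent H3K9me3. Chromosomes 2 and 4 were close to equal, with 49 and 46 and with 48 and 43.

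The fullest single bins show how concentrated the regions could be. On chromosome 5 from 46.0 to 46.25 Mb, in the gene-free stretch, 30 LOVO regions covered 119.4 kb, 47.8% of the bin, and RKO had none. On chromosome 7 from 62.75 to 63.0 Mb, 28 LOVO regions covered 40.0%, again with no RKO region. On chromosome 12 from 34.5 to 34.75 Mb, 23 LOVO regions stood beside 8 of RKO. The 3 fullest RKO bins all lay on chromosome 8. From 43.75 to 44.0 Mb RKO had 26 regions over 47.7% of the bin, from 46.25 to 46.5 Mb 19 regions, and from 43.5 to 43.75 Mb 16 wider regions over 60.3% of the bin. LOVO had 5, 10 and 5 regions in these bins.

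Most regions near centromeres were found in 1 line. A LOVO region was counted as shared if an RKO region overlapped it by at least 1 bp, and the reverse. In LOVO 296 of 1511 were shared, 19.6% (95% interval 17.7 to 21.7%), against 35.5% of all LOVO regions on these chromosomes and 37.3% of those outside the windows. In RKO 288 of 858 were shared, 33.6% (30.5 to 36.8%), against 23.8% of all RKO regions and 23.4% of those outside. Which line had the larger shared part was therefore reversed near borders, as was the number of regions, and the larger list has fewer partners for each of its regions. In the gene-free stretches 15.1% of LOVO regions (12.9 to 17.6%) and 41.1% of RKO regions (35.9 to 46.4%) were shared, and in the flanks 26.2% and 28.7%. The bases shared near borders came to 941 kb, which is 21.5% of the bases under LOVO regions and 30.2% of those under RKO regions. The Jaccard index, shared bases over all bases under either list, takes the size of both lists into account and was 0.144 near borders and 0.125 in the rest.

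**Figure D4:**
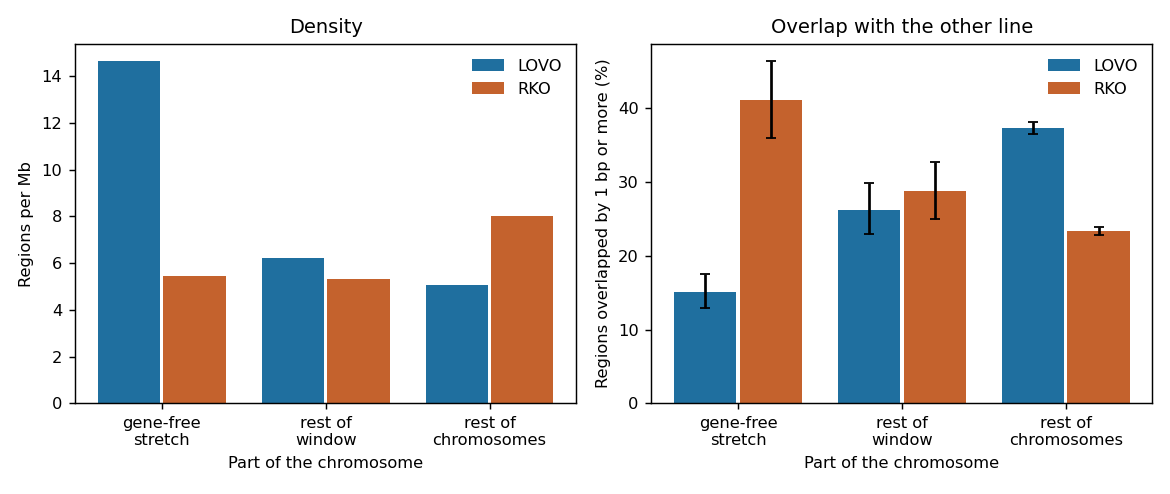
Left, regions per Mb (y axis) in the gene-free stretch, the rest of the window and the rest of the chromosomes for each line; right, the share of regions that a region of the other line overlaps by at least 1 bp, in percent, with Wilson 95% intervals that cover counting error only. LOVO goes from 14.7 to 5.06 regions per Mb and from 15.1 to 37.3% shared, RKO from 5.47 to 8.02 per Mb and from 41.1 to 23.4% shared.

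By distance from the border, the shared part of LOVO was lowest within 1 Mb, and that of RKO did not follow a single direction. Within 1 Mb, 13.4% of LOVO and 36.6% of RKO regions were shared. From 3 to 4 Mb the shares were 28.3% and 27.1%, from 4 to 6 Mb 30.3% and 32.2%, and from 8 to 12 Mb 35.2% and 28.2%. With a partner allowed within 10 kb, the shares near borders were 31.0% in LOVO and 50.7% in RKO. Over the whole lists they were 45.6% and 34.4%.

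The RKO share exceeded the LOVO share on 15 of 22 chromosomes. On chromosome 1, 11 of 13 RKO regions (84.6%) and 11 of 71 LOVO regions (15.5%) were shared. On chromosome 7 it was 22 of 28 (78.6%) and 21 of 229 (9.17%), so most RKO regions there met a LOVO region and most LOVO regions stood alone. Chromosome 8 mirrored this, with 34 of 51 LOVO regions (66.7%) and 36 of 187 RKO regions (19.3%). The lists matched best on chromosome 9, where 58.1% of 31 LOVO and 56.5% of 23 RKO regions were shared and the Jaccard index reached 0.361, followed by chromosome 4 at 0.343. No region was shared on chromosome 11, with 41 LOVO and 11 RKO regions, nor on chromosome 14, and chromosome 22 had 1 shared region in each list.

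The largest shared sums lay on chromosomes 10 (174.9 kb), 4 (99.999 kb), 8 (83.4 kb), 7 (77.4 kb) and 12 (57.1 kb). The best pair of chromosome 8 lay in HOOK3, which encodes an adaptor of the dynein motor. There the LOVO region at chr8:42934211-42939288 lay whole within the RKO region at chr8:42933180-42939969. The best pair of chromosome 12 shared 3.94 kb between chr12:37236536-37241073 in LOVO and chr12:37235710-37240477 in RKO, with no annotated gene.

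Widths differed between the lines near borders by about as much as they did elsewhere. The median was 2.001 kb in LOVO, the same as in the rest, and 2.55 kb in RKO, against 2.59 kb in the rest. A width of 2.001 kb is the commonest in both lists and the smallest near borders, and 851 LOVO regions (56.3%) and 312 RKO regions (36.4%) had exactly this width. Wider than that were 660 LOVO regions, 43.7% against 45.4% of the whole list, and 546 RKO regions, 63.6% against 62.0%. These shares lay close to their backgrounds. The RKO median exceeded the LOVO median on 18 of 22 chromosomes. It was at the floor of 2.001 kb on 14 chromosomes in LOVO and on 2 in RKO. Shared regions had a median of 2.67 kb in LOVO and 3.10 kb in RKO, against 2.001 and 2.34 kb for the others, and a wider region has more bases that can meet a partner.

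The upper tail was where widths near borders stood apart from the rest of each list. Regions of 10 kb or more numbered 20 in LOVO, 1.32% of those near borders against 0.412% of the whole list and 0.308% outside the windows. In RKO they numbered 23, 2.68% against 0.958% of the whole list and 0.887% outside. They lay on 11 chromosomes in LOVO and 10 in RKO and held 8.11% and 16.5% of the bases under regions near borders. A region of the other line overlapped 17 of the 20 and 19 of the 23. Over the whole lists it overlapped 42 of 61 such LOVO regions and 122 of 210 such RKO regions. Outside the windows the counts were 25 of 41 and 103 of 187, so wide regions were often shared there too. None of the 20 LOVO regions touched an annotated gene. Of the 23 RKO regions 21 touched none, and the others covered MIR1299 on chromosome 9 and part of ZNF37A on chromosome 10. However, 10 of the LOVO and 15 of the RKO wide regions lay in the gene-free stretches, which lack annotated genes by definition. Of all regions near borders, 88.2% in LOVO and 73.1% in RKO had their midpoint between genes.

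Where wide regions of both lines met, the ends were in 4 cases nearly the same. Among 13 overlapping pairs in which both regions reached 10 kb, on 7 chromosomes, 4 had starts and ends that each differed by less than 500 bp. On chromosome 2 the regions were chr2:90378697-90402458 in LOVO (23.8 kb) and chr2:90378829-90402730 in RKO (23.9 kb). On chromosome 20 they were chr20:31051823-31076140 (24.3 kb) and chr20:31051909-31076624 (24.7 kb). The other 2 were chr1:125173956-125185038 with chr1:125173982-125185136, and chr7:61046152-61058008 with chr7:61046354-61057665. Regions known for artefactual ChIP signal were not removed in this re-analysis, and the labels do not say if the submitters removed them.

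The widest regions near borders lay on chromosomes 4 and 10, where a single region of 1 line often met several of the other. Wider regions, up to 66.5 kb in LOVO and 89.8 kb in RKO, lay outside the windows. The widest RKO region (chr4:49090179-49151153, 61.0 kb) overlapped a pair of LOVO regions of 26.2 kb (chr4:49090008-49116237) and 41.3 kb (chr4:49116277-49157554), which follow each other almost without a gap. Another wide LOVO region at chr4:49631001-49658869 (27.9 kb) went the other way and met 3 RKO regions, of which the widest (17.8 kb) lay whole within it. On chromosome 10, the RKO region at chr10:41859979-41916634 (56.7 kb) met 3 LOVO regions, the largest at chr10:41869161-41901391 (32.2 kb). A second, at chr10:42066195-42106747 (40.6 kb), met 5. On chromosome 9 the RKO region that holds MIR1299, chr9:40903651-40934931 (31.3 kb), met 6 LOVO regions over 63.6% of its bases.

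Chromosome 8 carried 7 of the 23 wide RKO regions, and only 3 of those 7 were shared. The largest, chr8:43580012-43619536 (39.5 kb), had 10.1% of its bases under LOVO regions. The widest RKO regions with no LOVO region within 10 kb were chr8:43620822-43637122 (16.3 kb), chr8:46392573-46403673 (11.1 kb) and chr20:25368881-25378626 (9.75 kb), the last within ABHD12. The widest LOVO regions with no RKO region within 10 kb were chr7:57485723-57497167 (11.4 kb), chr22:16318808-16328829 (10.02 kb) and chr21:10654062-10663767 (9.71 kb).

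**Figure D5:**
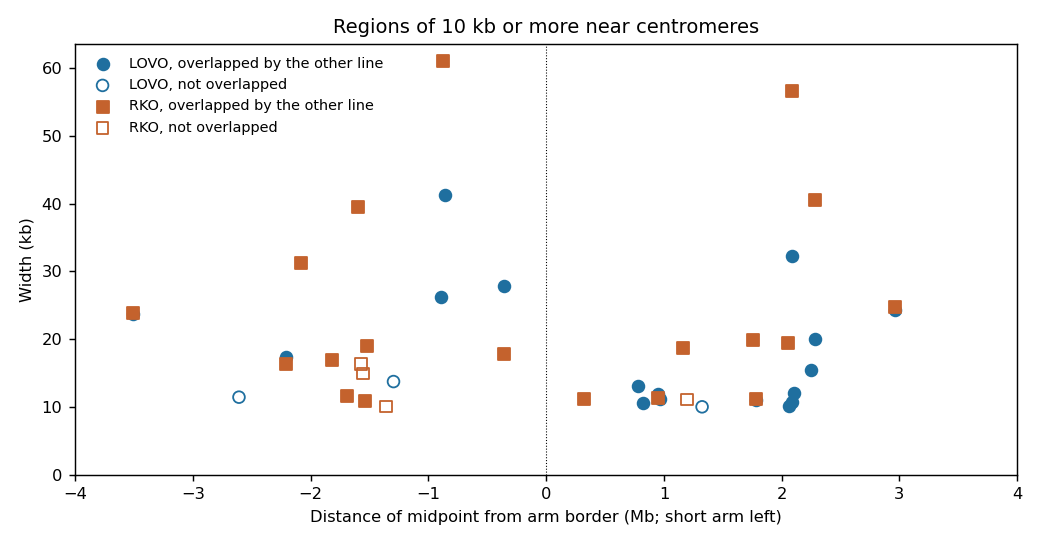
Width in kb (y axis) of the regions of 10 kb or more by distance of the midpoint from the arm border in Mb (x axis, short arm to the left), with circles for 20 LOVO and squares for 23 RKO regions, filled where the other line overlaps. The 3 open circles and 4 open squares lie at 16.3 kb or less, and the widest symbols are the RKO regions of chromosomes 4 (61.0 kb) and 10 (56.7 kb).

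Regions near borders lay mostly between genes, and LOVO more so than RKO. The midpoint fell in a protein-coding gene for 119 LOVO regions (7.88%) and 143 RKO regions (16.7%), against 39.4% and 39.5% in the rest. It fell in another annotated gene for 3.97% and 10.3%, against 15.2% and 15.5% in the rest. Between genes it fell for 88.2% and 73.1%, against 45.4% and 45.0% in the rest. Gene-free stretches add to the last class by their definition. In the flanks alone 70.7% of LOVO and 55.7% of RKO midpoints were between genes.

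Of 531 protein-coding genes near borders, 72 (13.6%) had a LOVO region in the body, against 15.5% of all 19126 genes, and 78 (14.7%) an RKO region, against 20.5%. Both lines marked 39, LOVO only 33, RKO only 39 and neither 420. Over all 19126 genes these numbers were 2027, 945, 1889 and 14265. By this rule of 1 bp the lines marked similar numbers of genes near borders. With at least 10% of the body under regions the numbers near borders were 14 in LOVO and 25 in RKO. With only regions wider than 2.001 kb they were 43 and 60. The shares over all genes under these stricter rules are not given here. The LOVO count includes ZNF676, which reaches past the limit and whose LOVO region lies outside the window, and the LOVO count of long noncoding RNA genes below includes 1 such gene. Among long noncoding RNA genes 34 of 566 (6.01%) were marked in LOVO and 43 (7.60%) in RKO, against 9.34% and 13.04% elsewhere. Among pseudogenes 29 of 1320 (2.20%) and 37 (2.80%) were marked, against 2.18% and 4.77% elsewhere.

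Among genes marked in both lines, ranked by the bases of the body under regions, SPIDR on chromosome 8, a scaffold gene of homologous recombination, came first. It had 4 LOVO regions over 9.55 kb and 18 RKO regions over 64.1 kb. SCFD2 on chromosome 4, of the Sec1 family of vesicle transport genes, had 5 LOVO regions over 13.6 kb and 8 RKO regions over 24.2 kb. PRIM2 on chromosome 6, the gene of the large subunit of DNA primase, had 10.2 and 25.3 kb, and HOOK3 had 8.33 and 14.4 kb. PRIM2, ANKRD36 and other genes beside centromeres have partial copies of close sequence, so regions assigned to them are uncertain. The balance tipped toward LOVO in HTR1F on chromosome 3, a serotonin receptor gene, with 7 regions over 14.6 kb against 2 over 4.002 kb. MIB1 on chromosome 18, which encodes a ubiquitin ligase of Notch signalling, was nearly even at 7.59 and 7.70 kb. BICD1 on chromosome 12, a dynein adaptor gene, had 7.02 and 9.42 kb. ANKRD36 on chromosome 2 had 3.65 and 9.71 kb, and EEF1AKMT1 on chromosome 13, a methyltransferase gene for elongation factor 1A, had 7.99 and 5.18 kb.

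Of the 8 genes with most bases under LOVO regions and none under RKO regions, 5 were zinc finger genes. ZNF479 on chromosome 7 had 44.8% of its body under LOVO regions (9.94 kb) and ZNF727 on the same chromosome 20.6% (8.21 kb). ZNF91 on chromosome 19, whose product represses SVA retrotransposons, had 8.69 kb, ZNF254 on chromosome 19 had 6.67 kb and ZNF33B on chromosome 10 had 5.68 kb. The others were COL21A1 on chromosome 6, a collagen gene (10.0 kb in 5 regions), CPNE8 on chromosome 12, a copine gene (8.21 kb), and IFT88 on chromosome 13, a gene of intraflagellar transport (8.19 kb).

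The 8 genes with most bases under RKO regions and none under LOVO regions held 1 gene with a zinc finger name, ZNF451 on chromosome 6, a SUMO ligase gene (5.28 kb). ABHD12 on chromosome 20, a lysophospholipase gene, had 3 RKO regions over 14.9 kb, 15.5% of the body, and its neighbour NINL, a centrosomal gene, had 7.03 kb. On chromosome 8, POMK, a kinase gene of dystroglycan glycosylation, had 31.3% of the body covered (9.38 kb) and CLXN, a ciliary gene, 29.0% (7.11 kb). DST on chromosome 6, which encodes the cytoskeletal linker dystonin, had 8.51 kb, BMS1 on chromosome 10, of ribosome assembly, 6.61 kb, and LOC124903442 on chromosome 15 7.11 kb.

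Zinc finger genes near borders were marked more often in LOVO than in RKO. Of 35 protein-coding ZNF and ZFP genes, 19 (54.3%) had a LOVO region and 10 (28.6%) an RKO region, against 15.5% and 20.5% of all protein-coding genes. Both lines marked 8, LOVO only 11 and RKO only 2. Outside the windows 204 of 490 (41.6%) and 136 (27.8%) were marked. There both lines marked 87, LOVO only 117 and RKO only 49, so LOVO led among zinc finger genes elsewhere too. The genes fell on few chromosomes. On chromosome 10, 8 of 9 were marked in LOVO and 5 in RKO, led by ZNF37A with 5 LOVO regions over 17.2 kb (30.8% of the body) and 1 RKO region of 11.7 kb (20.8%). ZNF25, ZNF33A, ZNF248 and ZNF487, all on chromosome 10, were also marked in both lines, while ZNF239, ZNF485 and ZNF33B were marked in LOVO only. On chromosome 7 all 4 members, ZNF479, ZNF716, ZNF722 and ZNF727, were marked in LOVO and none in RKO. On chromosome 19, 4 of 14 were marked in LOVO, ZNF676 among them, 1 in RKO and none in both. ZNF724 was the single RKO gene there (2.001 kb). ZNF514 and ZNF892 on chromosome 2 and ZNF654 on chromosome 3 were marked in both lines.

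Other gene families near borders differed in how often they were marked. The shares over all protein-coding genes, for comparison, were 15.5% (LOVO) and 20.5% (RKO). Of 9 protein-coding POTE genes, a primate family of ankyrin-repeat genes, none had a LOVO region and 1, POTEA on chromosome 8, had an RKO region (4.002 kb). Elsewhere none of 4 was marked in either line. Of 5 protein-coding genes of the ANKRD20, ANKRD26, ANKRD30 and ANKRD36 families, 3 (60%) were marked in LOVO and 2 (40%) in RKO, above those shares but over few genes. Elsewhere 0 and 1 of 3 were marked. With genes of any class the shares of these families near borders were lower, 17.6% and 11.8% of 17, against 11.1% in each line elsewhere. ANKRD36 and ANKRD36B were marked in both, and ANKRD30A in LOVO only (2.001 kb). None of 74 olfactory receptor genes had a region in either line, against 6 and 15 of 317 elsewhere. The 2 GOLGA6 and GOLGA8 genes, the 3 NBPF and NOTCH2NL genes and the 2 protein-coding TPTE genes had none. Elsewhere the 27 GOLGA6 and GOLGA8 genes and the 15 NBPF and NOTCH2NL genes had none either. The 1 protein-coding TPTE gene elsewhere was marked in both lines. TPTEP1, a transcribed pseudogene of TPTE on chromosome 22, had 5.93 kb under LOVO regions and none under RKO regions. FRG1HP, 1 of 6 FRG1 copies near borders (16.7%, against 1 of 5 elsewhere), was marked in both lines (2.59 and 4.52 kb). Of 33 FAM genes of any class, FAM230C and FAM230F were marked in both lines and no other in either, 6.06% against 12.1% in LOVO and 16.6% in RKO elsewhere. Of 6 protein-coding SLC genes, SLC20A2 was marked in RKO only (2.56 kb), which is 16.7% in RKO against 23.5% elsewhere, and none was marked in LOVO, against 19.7% elsewhere.

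Some noncoding genes were covered over much of their length. LINC00342 on chromosome 2 had 48.8% of its body under LOVO regions (9.72 kb) and 42.4% under RKO regions (8.45 kb). LOC101930100 on chromosome 21 had 47.2% under RKO regions (20.9 kb) and LOC102723769 on chromosome 22 had 19.2 kb, both without a LOVO region. LINC01666, also on chromosome 21, had 7.14 kb under LOVO regions and no RKO region, so noncoding genes of 1 chromosome were marked in opposite lines. LOC105375825 on chromosome 8 had 2.001 kb in LOVO and 13.8 kb in RKO. The pseudogene ZNF37BP on chromosome 10 had 6.003 and 12.4 kb. Of 478 long noncoding RNA genes named LINC or LOC, 22 (4.60%) were marked in LOVO and 32 (6.69%) in RKO, with 9 in both, against 9.11% and 12.6% elsewhere.

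Counting any overlap with the window again gave 1511 LOVO and 858 RKO regions. No region with its midpoint outside the window therefore reached in across the limit of 4 Mb. Just inside it, LOVO had chr12:31504123-31506123 in DENND5B, which shared 1.78 kb with the RKO region chr12:31504345-31507364, and a pair on chromosome 7, chr7:56107228-56109228 and, in ZNF727, chr7:64080082-64082619. Just outside it, LOVO had chr20:32108304-32110304 in TM9SF4, chr3:86885433-86887936 and chr12:39514851-39517909. RKO had a further region in DENND5B (chr12:31500822-31502822) and a region in TMEM131 (chr2:97895479-97897479) just inside, and chr9:38992096-38994713, chr12:39510173-39512695 and, in CHIC2, chr4:54023568-54025568 just outside. All of these were between 2.001 and 3.06 kb wide.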

How the data were processed

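Per the submitters' processing notes, the build was hg38 and the tools were HOMER 4.11, Bowtie2 2.4.2, Picard 2.26.0, FastQC 0.11.9 and Trim Galore 0.6.6, listed without their roles. The sources used here do not give peak-calling settings, the use of inputs, any pooling of libraries or the depth. Each deposited list gives a chromosome, a start and an end per region and no score. Of these, 133 LOVO and 210 RKO regions on X and Y were left out. Genes, promoters and microRNAs came from RefSeq tables of GRCh38.p14, with gene spans only, and no genome sequence was used.

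Region and gene lists, the rules and the alternatives were chosen with earlier results of these data known. Named genes were those with most bases of the body under regions, 10 marked in both lines and 8 in each line alone, with up to 4 of each family and the 3 other genes with most bases in each line. Named regions were the 5 widest, the 3 widest without a partner within 10 kb, the best pair on 5 chromosomes and 3 on each side of the limit. The rule for promoters, under regions of both lines, found none. The remaining ZNF genes, the 10-kb pairs and the fullest bins were named after their values were seen. Densities used 1-Mb windows with a gene or region. The code was checked on planted regions. Tools were Python 3.11.15, pandas 2.3.3, numpy 2.4.6, statsmodels 0.14.6 (Wilson intervals), scipy 1.17.1 and matplotlib 3.10.9.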

Additional observations from a re-analysis of the deposited data

How the results depend on the processing

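The excess of LOVO regions near borders held in the alternative runs that could lower it. It stood at 1.21 (only regions wider than 2.001 kb) to 2.06 (window of 2 Mb) LOVO regions for each RKO region. In the gene-free stretches it was 1.79 to 3.33. Lists of equal size gave 2.52 and 3.63, but they trim only the RKO list, so these ratios could not fall. Counting any overlap with the window repeated the main values. The density near borders over that in the rest was 1.52 to 2.20 in LOVO and 0.601 to 0.694 in RKO. Of 116 alternative values, 42 moved by more than their interval or, for counts, by 1.5 times or more. Several of the others could not move. Lists of equal size keep the whole LOVO list, and no region with its midpoint outside the window reaches into it. A window of 6 Mb leaves the gene-free stretches as they are. A window of 2 Mb gave 929 LOVO and 451 RKO regions (6.28% and 2.06% of the lists), a median RKO width of 2516 bp, and shares overlapped of 17.5% in LOVO and 37.9% in RKO; 6 Mb gave 12.6% and 5.44% of the lists. Joining regions within 5 kb gave 213 RKO regions in gene-free stretches, an RKO median of 2687 bp, 8.55% and 3.52% of the lists, and 67.8% of RKO regions above the commonest width. Keeping only wider regions left 660 LOVO and 546 RKO, with 387 and 216 in gene-free stretches, medians of 3120 and 3214 bp, 22% and 26.9% overlapped, and 43 genes marked in LOVO. Lists of equal size, widest first, gave an RKO median of 3104 bp, 16.3% and 39.1% overlapped, and 91.2% of RKO regions above the commonest width. Without chromosomes 5, 7, 8, 9, 10 and 12, 751 LOVO and 433 RKO regions were left, 420 and 126 of them in gene-free stretches, with 8.71% of the LOVO list, 39.8% of LOVO regions above the commonest width, and 40 genes marked in LOVO. A reciprocal overlap of 50% gave 9.60% and 16.9% overlapped, and a partner within 10 kb 31.0% and 50.7%. With 10% of the gene body required, the marked genes numbered 14 in LOVO and 25 in RKO. Within 1 Mb of the border, used in place of the gene-free stretch after seeing the data, LOVO had 479 and RKO 191 regions. Smaller numbers under stricter settings follow from fewer regions or chromosomes, and for the rest the cause was not tested. The depth behind the lists is unknown, so whether a region found in 1 line is absent from the other cannot be told. No paired analysis was possible because the lists name no replicate.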
